A study of Bos taurus with 34 samples.

Results

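Control bovine embryos at the morula stage were set against control embryos at the blastocyst stage, to ask which transcripts differ in level when an embryo passes from a solid ball of cells to a hollow blastocyst. The embryos were chosen by titles that name them as controls and by the stage in the labels, which gave 17 blastocysts and 4 morulae, 21 of the 34 embryos in all. The series measured polyadenylated RNA in single preimplantation embryos with or without a deletion of CSF2RA, which encodes the alpha chain of the receptor for the cytokine CSF2. The blastocysts were 8 females and 9 males, and the morulae were 1 female (embryo 73) and 3 males (embryos 39, 41 and 54). Titles of the 13 other embryos read CSF2KO, which names the ligand. For all 34 samples, controls included, the labels give Wnt5A, a recombinant WNT protein, as treatment and culture in vitro as the way of growth, while the title and design of the series place the embryos in utero and in vivo. Which of these holds, what the controls received in place of the deletion, and the age of the embryos are not given in the sources used here. The title of blastocyst 72 gives male and its column gives female, and the title was used. Each embryo is 1 library and 1 replicate. Nothing says which embryos share parents, flushings or culture drops, so p-values measure the spread between these embryos only.

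At the morula stage the outer cells of the embryo compact, polarise and seal their contacts with tight junctions. In outer cells the Hippo kinases are held off, YAP1 enters the nucleus, and with TEAD4 it turns on trophectoderm genes such as CDX2 and GATA3. Sodium pumps then drive fluid inwards to form the blastocoel. Inside, the remaining cells sort into epiblast, marked by NANOG, and hypoblast, marked by GATA6, SOX17 and GATA4, and in cattle POU5F1 is also present in trophectoderm at the blastocyst stage. The trophectoderm of ruminants goes on to make trophoblast proteins such as interferon tau and pregnancy-associated glycoproteins. A whole embryo was sequenced here, so fewer cells of a type and less RNA per cell cannot be told apart.

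Reads per library ran from 115512 (blastocyst 18) to 17598170 (blastocyst 37) in blastocysts, with a median of 878069, and were 1526852, 287512, 340731 and 93980 in morulae 39, 41, 54 and 73. Levels below are scaled CPM, that is reads recovered from the deposited RPKM and put on 1 scale for all embryos over the 14494 genes that both deposited tables hold. Each stage has a table of its own, so stage and table cannot be told apart. Levels of morulae are given in the order 39, 41, 54 and 73, and 1 read is worth 0.585, 3.84, 2.61 and 13.1 in them, so a count of 0 allows up to 1.76, 11.5, 7.83 and 39.2 (3 reads, counting error only). Blastocyst ranges cover the 16 blastocysts other than 12, whose value stands beside them, and medians are over all 17. Neither the number of reads (exact permutation test on log10 reads, two-sided, p = 0.223) nor the number of genes detected at equal depth (p = 0.418) nor the mitochondrial share (p = 0.763) differed between stages beyond the spread of 17 against 4 embryos, and of 12 such measures none passed adjustment (smallest adjusted p = 0.649).

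Some libraries stood apart within their stage. Blastocyst 12 held 2791 genes where the other blastocysts held up to 16652, and mitochondrially encoded genes took 36.4% of its reads. It had 0 reads of KRT18, CDX2 and GATA3, which mark trophectoderm, and TEAD4, TFAP2C and KRT19 were also at 0. Other trophectoderm and epithelial genes, GATA2, ID2, KRT7 and EPCAM, were higher in it than in any other blastocyst (1693, 646, 348 and 1222). Blastocyst 12 held some transcripts of the oocyte (KPNA7 at 662 reads against at most 14 in any other blastocyst, NPM2 at 404 against at most 3). NLRP13, ZP4 and ACCSL were also highest in it, while OOEP, AURKC, PADI6, PATL2, DDX4, GDF9, BMP15 and NLRP5 were at 0. Blastocyst 12 also held some markers of white blood cells (CD74 at 1383 against at most 25, TYROBP at 507 against at most 2, FCER1G at 644 against at most 7). Other leukocyte markers, CD68, CSF1R, CD14, CD79A and CXCL8, were at 0 in it. Many of these values go against the label of this library, and most differences below are given with and without it. In blastocysts 35, 36, 37, 51 and 52 bta-mir-2887-1, a microRNA symbol held by 2 genes, took 0.458% to 1.40% of reads, against 3.71% to 5.20% in the other 11, and nuclear genes of oxidative phosphorylation took 4.68% to 5.68%, against 1.46% to 2.70%. Results are therefore also given with those 11 blastocysts against the 4 morulae. Among morulae, 54 had 0.00675% of bta-mir-2887-1 and 5.82% of GSC2, and 73 had 13.9% of ANKRD9 and 9.01% of NPAT. Only the ANKRD9 share stood alone among these 3 genes, at most 0.188% in any other embryo, since NPAT took 7.28% in morula 41 and 7.67% in blastocyst 12, and GSC2 took 7.68% and 8.74% in blastocysts 11 and 18. Whether these shares are part of any result was not tested.

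**Figure D1:**
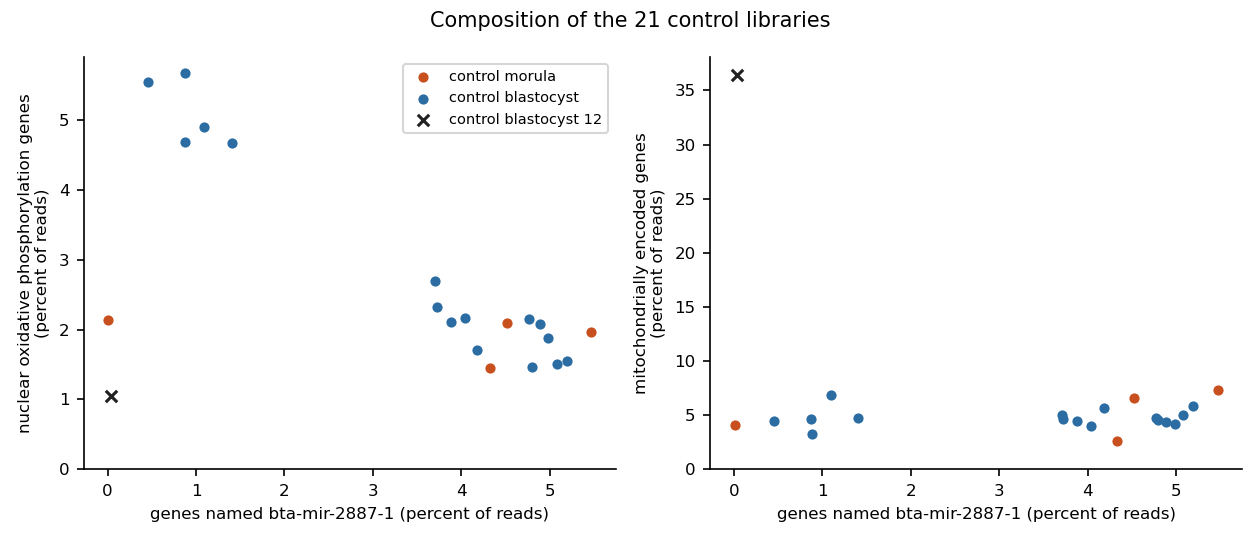
Share of reads, in percent, of bta-mir-2887-1 (x axes) against the share of nuclear oxidative phosphorylation genes and of mitochondrially encoded genes (y axes); each point is 1 control embryo. Blastocysts 35, 36, 37, 51 and 52 lie at 0.458% to 1.40% on the x axis and 4.68% to 5.68% for oxidative phosphorylation, and blastocyst 12 lies alone at 36.4% mitochondrial reads.

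No gene differed between the stages past adjustment when all 21 embryos were compared. Of 9067 genes tested with limma, 0 (0%) had an adjusted p under 0.05, and the smallest adjusted p was 0.399, for FGFR1. At an unadjusted p under 0.05, 230 genes (2.54%) were higher in blastocysts and 263 (2.90%) were lower. With voom the counts at that limit were 36 higher and 162 lower, and again none passed. The median log2 difference, blastocyst minus morula, over all genes was -0.03, with 4293 genes above 0 and 4774 below. The 95% interval lay within 1 log2 unit of 0 for 618 genes and within 2 log2 units for 8367. Without blastocyst 12 these numbers were 3713 and 8677.

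Without blastocyst 12 the spread was smaller and 2 of 9066 genes (0.0221%) passed, TMEM150A and EIF1AD, both higher in blastocysts. At an unadjusted p under 0.05, 748 (8.25%) were then higher and 484 (5.34%) lower, around a median of 0.05. With the 11 blastocysts against 4 morulae, 14 of 8806 genes (0.159%) passed, 13 higher and 1 lower. There, 911 (10.3%) were higher and 360 (4.09%) lower at an unadjusted p under 0.05, around a median of 0.08. Genes with every one of the 17 blastocysts above every morula numbered 0 (0%), and 10 (0.110%) had every blastocyst below every morula. Without blastocyst 12, 2 genes (0.0221%), WBP1 and RBM39, lay wholly above, and 12 (0.132%) wholly below. RBM39 is a splicing factor and WBP1 a protein that binds WW domains, and both were singled out after their values were seen.

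**Figure D2:**
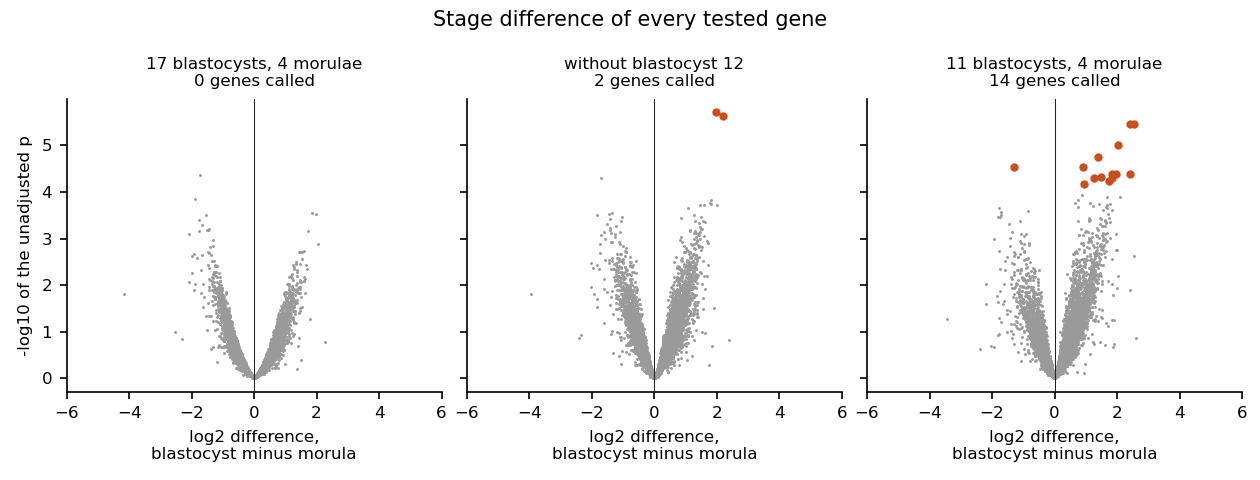
Log2 difference, blastocyst minus morula (x axis), against -log10 of the unadjusted p (y axis), 1 point per gene, for all 21 control embryos, without blastocyst 12, and for 11 blastocysts against 4 morulae. Genes with an adjusted p under 0.05 number 0, 2 and 14 in the 3 panels.

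Transcription factors of the trophectoderm were already present in morulae. CDX2 (ARS-UCD1.2 chromosome 12, 32083603 to 32089291), the homeobox factor that keeps trophectoderm identity, stood at 86.6, 80.7, 18.3 and 144 in the morulae. It was 36.4 to 153 in blastocysts (median 103, blastocyst 12 at 0). Morula 54 was low, the other 3 morulae lay inside the blastocyst range, and the log2 difference was 0.33 (SE 0.62, 95% interval -0.92 to 1.58, adjusted p = 0.999), or 0.50 (adjusted p = 0.52) without blastocyst 12. GATA3, which acts beside CDX2, had 234, 219, 193 and 470.5 in morulae and 63.97 to 467 in blastocysts (median 178, blastocyst 12 at 0), a difference of -0.69 (SE 0.70, 95% interval -2.09 to 0.71, adjusted p = 0.999), or -0.49 (adjusted p = 0.54) without blastocyst 12. Its groups overlap, with all 4 morulae above the blastocyst median and 10 of 17 blastocysts below the lowest morula. GATA2, a factor of bovine trophoblast genes, was at 474, 565, 687 and 575 against 336 to 1329.6 in blastocysts (median 737, blastocyst 12 at 1693). Blastocyst 12, which had no CDX2 or GATA3 reads, thus had more GATA2 than any other embryo.

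TEAD4, the DNA-binding partner of YAP1, lay below the lowest morula in 16 of 17 blastocysts, without passing the test. It stood at 105, 123, 178 and 131 in morulae and at 34.5 to 112 in blastocysts (median 75.5, blastocyst 12 at 0). Morulae 41, 54 and 73 lay above every blastocyst, and 1 blastocyst lay above morula 39. The log2 difference was -0.94 (SE 0.56, 95% interval -2.07 to 0.19, adjusted p = 0.979), or -0.78 (adjusted p = 0.211) without blastocyst 12, so it passed in neither fit. GCM1, a factor of trophoblast fusion in human, was at 31.6, 30.7, 23.5 and 26.1 against 4.47 to 24.1 in blastocysts (median 13.8, blastocyst 12 at 0). With 16 of 17 blastocysts below the lowest morula, its difference was -0.87 (SE 0.41, unadjusted p = 0.0393, adjusted p = 0.902), or -0.79 (adjusted p = 0.274) without blastocyst 12. TFAP2C, which is needed for trophectoderm genes in mouse, had 198, 111, 266 and 157 against 75.8 to 204 in blastocysts (median 138, blastocyst 12 at 0), with the groups overlapping. TFAP2A had a median of 39.5 in blastocysts but stood at 39921 in blastocyst 35 and 13393 in blastocyst 51, and its difference of 2.28 ± 1.57 (SE) became 1.14 (adjusted p = 0.135) with the 11 blastocysts, which leave both libraries out. In all, 10 of 20 trophectoderm factors tested lay above 0, none passed adjustment, and 0 higher and 1 lower had an unadjusted p under 0.05, where 2.54% and 2.90% of all genes did. The median difference of the list was 0.04 over all 21 embryos, 0.09 without blastocyst 12 and 0.19 with the 11 blastocysts, beside -0.03, 0.05 and 0.08 over all genes. EOMES had 5 reads and ELF5 had 22 over the 17 blastocysts, and these genes have no row in the morula table.

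Products of the trophoblast showed no common direction over all 21 embryos. KRT18, a keratin of simple epithelia, was abundant at both stages, at 7682, 9383, 10317 and 7959 in morulae and 6616 to 16118 in blastocysts (median 9882, blastocyst 12 at 0). Its groups overlap, and the sign of the difference depended on blastocyst 12, being -0.22 with it and 0.18 (adjusted p = 0.69) without it. PAG2, a pregnancy-associated glycoprotein of the trophoblast, stood at 75.5, 227, 102 and 536 against 96.4 to 589 in blastocysts (median 207, blastocyst 12 at 0). Its morulae spanned almost the whole blastocyst range, and the difference was 0.11 (SE 0.75, 95% interval -1.41 to 1.62, adjusted p = 0.999), or 0.33 (adjusted p = 0.759) without blastocyst 12. PTGS2, the inducible prostaglandin synthase, was at 667, 492, 399 and 771 against 198 to 1025 in blastocysts (median 473, blastocyst 12 at 0), again overlapping.

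Further members were uneven among morulae. SSLP1, a secreted protein of the Ly-6 family, was at 12.3, 7.68, 2.61 and 131 against 5.80 to 187 in blastocysts (median 76.2, blastocyst 12 at 0), and CYP11A1, which makes pregnenolone from cholesterol, was at 4.68, 19.2, 15.7 and 169.9 against 18.2 to 302 in blastocysts (median 88.4, blastocyst 12 at 0). For both genes morula 73 was high and reached into the blastocyst range, while the other 3 morulae were near or below its lower end. The difference of SSLP1 was 1.24 (SE 0.78, adjusted p = 0.988), or 1.41 (adjusted p = 0.363) without blastocyst 12. For CYP11A1 it was 1.07 (SE 0.73, adjusted p = 0.999), or 1.24 (adjusted p = 0.386) without blastocyst 12. IFNT3, an interferon tau gene, was at 15.2, 19.2, 0 and 91.5 against 0 to 62.9 in blastocysts (median 3.84, blastocyst 12 at 0), with a difference of -1.23 (SE 0.56, unadjusted p = 0.0341, adjusted p = 0.885), or -1.15 (adjusted p = 0.372) without blastocyst 12. Interferon tau genes are near-identical copies, so reads may be split among them. Of 22 trophoblast products tested, 11 were above 0, with 0 higher and 1 lower at an unadjusted p under 0.05, against 2.54% and 2.90% of all genes. Their median was -0.01 over all 21 embryos, 0.18 without blastocyst 12 and 0.33 with the 11 blastocysts. Without blastocyst 12, PLAC8A (0.99, unadjusted p = 0.0114, adjusted p = 0.273), KRT8 (0.44, unadjusted p = 0.0203, adjusted p = 0.298) and SSLP1 (unadjusted p = 0.0476) were higher at that limit. IFNT3 then had an unadjusted p of 0.0532, and 8.25% and 5.34% of all genes were higher and lower. KRT8 lay above the highest morula in 14 of 17 blastocysts. PAG11 had 81 reads in 12 of the 17 blastocysts and has no row in the morula table.

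Epiblast and pluripotency genes were measured at both stages. NANOG, the factor that marks the epiblast, stood at 25.2, 42.3, 0 and 52.3 in morulae and at 2.32 to 109 in blastocysts (median 57.7, blastocyst 12 at 0). Morula 54 had no read, which allows up to 7.83, and the other morulae lay inside the blastocyst range. The difference was 0.55 (SE 0.69, 95% interval -0.85 to 1.95, adjusted p = 0.999), or 0.69 (adjusted p = 0.632) without blastocyst 12. POU5F1, a core pluripotency factor, had 379, 338, 674 and 301 against 268 to 902 in blastocysts (median 487, blastocyst 12 at 0), overlapping, with a difference of 0.16 (SE 0.76, 95% interval -1.37 to 1.68, adjusted p = 0.999), or 0.40 (adjusted p = 0.486) without blastocyst 12. KLF4, a factor of naive pluripotency in mouse, was at 219.5, 184, 407 and 78.4 against 39.8 to 549 in blastocysts (median 112, blastocyst 12 at 0), with 1 blastocyst above all morulae and a difference of -1.08 (SE 0.68, adjusted p = 0.985), or -0.90 (adjusted p = 0.392) without blastocyst 12.

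TDGF1, the NODAL co-receptor, was at 5.27, 7.68, 0 and 0 in morulae and 0 to 38.4 in blastocysts (median 13.5, blastocyst 12 at 727), so that blastocyst 12 held more than any other embryo. Its difference was 1.16 (SE 0.76, adjusted p = 0.999), or 0.98 (adjusted p = 0.386) without blastocyst 12, and 1.66 (adjusted p = 0.108) with the 11 blastocysts. LEFTY2, an inhibitor of NODAL, was at 7.61, 0, 0 and 0 against 0 to 24.98 in blastocysts (median 5.73, blastocyst 12 at 0), and FGF4, the signal from epiblast to hypoblast in mouse, at 4.68, 7.68, 0 and 0 against 0 to 21.1 in blastocysts (median 6.83, blastocyst 12 at 0). Both were near the worth of single reads in morulae. In the list, 11 of 17 tested genes were above 0, with 0 higher and 0 lower at an unadjusted p under 0.05 (2.54% and 2.90% over all genes) and a median of 0.07 over all 21 embryos, 0.27 without blastocyst 12 and 0.26 with the 11 blastocysts.

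Hypoblast genes pointed in both directions. GATA6, an early hypoblast factor, was at 354, 334, 621 and 196 against 173 to 420.4 in blastocysts (median 283, blastocyst 12 at 0), with morula 54 above all blastocysts and a difference of -0.57 (SE 0.73, 95% interval -2.03 to 0.89, adjusted p = 0.999), or -0.34 (adjusted p = 0.556) without blastocyst 12. GATA4, a later factor of the same lineage, was at 8.20, 0, 2.61 and 0 in morulae and 1.16 to 31.2 in blastocysts (median 8.17, blastocyst 12 at 0). Among morulae, 41 and 73 had no read, and the difference was 0.96 (SE 0.41, unadjusted p = 0.0245, adjusted p = 0.851), or 1.02 (adjusted p = 0.281) without blastocyst 12. SOX17 stood at 7.61, 19.2, 31.3 and 13.1 against 0 to 71.5 in blastocysts (median 24.9, blastocyst 12 at 59.8), and the groups overlap. NID2 (chromosome 10, 44846568 to 44939145), a nidogen of basement membranes, was at 38.6, 46.1, 28.7 and 39.2 in morulae and 6.83 to 35.2 in blastocysts (median 10.9, blastocyst 12 at 0), so that 16 of 17 blastocysts lay below the lowest morula. Its difference was -1.42 (SE 0.42, unadjusted p = 0.00155, adjusted p = 0.745), or -1.34 (adjusted p = 0.173) without blastocyst 12. LAMB1, a laminin chain, was at 107, 134, 146 and 105 against 30.1 to 198 in blastocysts (median 82.6, blastocyst 12 at 0), overlapping. Of the list, 4 of 17 tested genes were above 0, 1 higher and 1 lower had an unadjusted p under 0.05 (2.54% and 2.90% over all genes), and the median was -0.33 over all 21 embryos, -0.17 without blastocyst 12 and 0.06 with the 11 blastocysts. That median turned from below to above 0 with the choice of blastocysts.

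**Figure D3:**
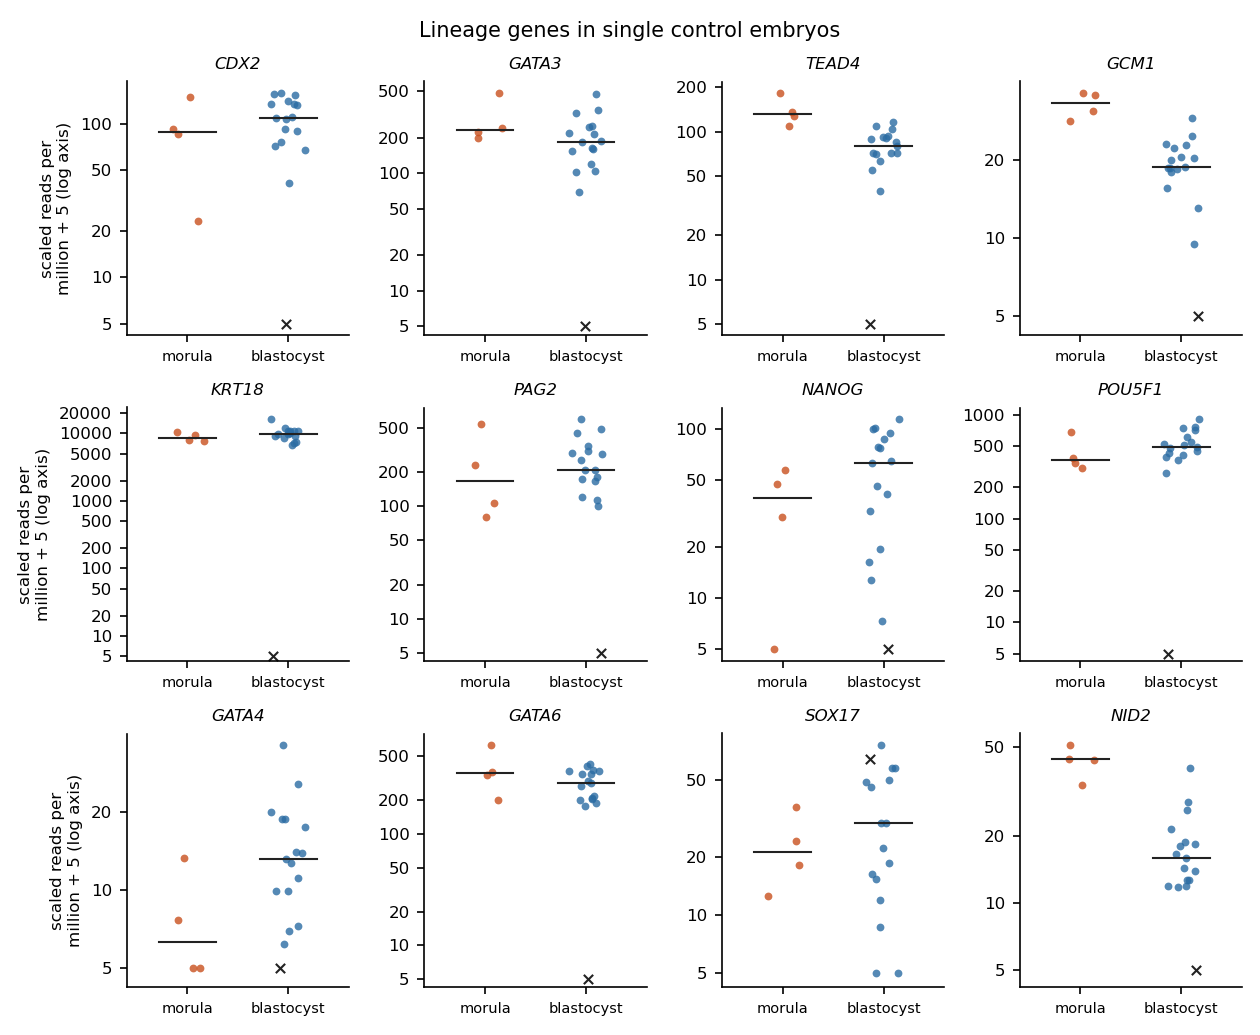
Scaled CPM plus 5, on a log axis, of 12 lineage genes; each point is 1 control embryo, orange for the 4 morulae and blue for the blastocysts, a black cross marks blastocyst 12 and bars mark medians. The stages overlap in each panel; for NID2 and GCM1, 16 of 17 blastocysts lie below the lowest morula, and blastocyst 12 lies at 0 reads for CDX2, GATA3 and KRT18.

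Genes of the Hippo pathway lay mostly below 0. Of 24 tested members, 7 were above 0, and the median was -0.35 over all 21 embryos, -0.32 without blastocyst 12 and -0.11 with the 11 blastocysts, each below the median of all genes in the same fit. At an unadjusted p under 0.05 there were 0 higher and 0 lower with all 21 embryos and 1 higher and 2 lower without blastocyst 12, where 8.25% and 5.34% of all genes were higher and lower. CCN1, a secreted target of YAP1, was at 58.5, 142, 93.98 and 65.3 in morulae and 0 to 206 in blastocysts (median 52.3, blastocyst 12 at 0), overlapping, with a difference of -1.52 (SE 0.86, adjusted p = 0.963), or -1.39 (adjusted p = 0.467) without blastocyst 12. AMOTL2, an angiomotin that holds YAP1 at junctions and is itself a YAP1 target, was at 129, 165, 83.5 and 39.2 against 0 to 233 in blastocysts (median 45.3, blastocyst 12 at 0), a difference of -1.24 (SE 0.71, adjusted p = 0.963), or -1.10 (adjusted p = 0.486) without blastocyst 12. Both genes ranged widely among blastocysts. RASSF1, a scaffold of the Hippo kinases, had the opposite sign, at 18.7, 30.7, 15.7 and 0 against 8.98 to 76.8 in blastocysts (median 36.6, blastocyst 12 at 0), a difference of 0.99 (SE 0.54, adjusted p = 0.963), or 1.10 (adjusted p = 0.299) without blastocyst 12. TEAD2 was at 29.9, 15.4, 36.5 and 78.4 against 0 to 62.5 in blastocysts (median 16.6, blastocyst 12 at 0), with morula 73 above every blastocyst.

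Junction genes were measured because the blastocoel needs a sealed outer layer. CLDN4, a claudin of tight junctions, stood at 252, 472, 321 and 902 in morulae and 451 to 929 in blastocysts (median 584, blastocyst 12 at 298). Morulae 39 and 54 lay below the 16 blastocysts other than 12, and 41 and 73 lay among them, with a difference of 0.41 (SE 0.54, adjusted p = 0.999), or 0.47 (adjusted p = 0.364) without blastocyst 12. CLDN3 was at 10.5, 42.3, 20.9 and 65.3 against 8.98 to 174 in blastocysts (median 79.6, blastocyst 12 at 0), and its difference was 1.05 (SE 0.61, adjusted p = 0.965), or 1.205 (adjusted p = 0.279) without blastocyst 12. CLDN1 pointed the other way, at 2.93, 19.2, 13.1 and 39.2 against 0 to 13.9 in blastocysts (median 6.55, blastocyst 12 at 0), with a difference of -0.92 (SE 0.41, unadjusted p = 0.0287, adjusted p = 0.86), or -0.87 (adjusted p = 0.321) without blastocyst 12. TJP1, a scaffold under the junction, differed by -0.78 ± 0.58 (SE), or by -0.62 (adjusted p = 0.325) without blastocyst 12. Of 24 tight junction and polarity genes, 7 were above 0, 0 higher and 1 lower had an unadjusted p under 0.05 (2.54% and 2.90% over all genes), and the median was -0.24 over all 21 embryos, -0.09 without blastocyst 12 and 0.11 with the 11 blastocysts. Among 20 genes of adherens junctions, desmosomes and keratins, 6 were above 0 and none had an unadjusted p under 0.05, with a median of -0.10 over all 21 embryos, 0.03 without blastocyst 12 and 0.18 with the 11 blastocysts. CTNNB1, the beta-catenin of adherens junctions, differed by -0.80 ± 0.69 (SE), or by -0.59 (adjusted p = 0.307) without blastocyst 12.

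Genes for the fluid pump of the blastocoel were above 0 for 9 of 12 tested members, with a median of 0.20 over all 21 embryos, 0.31 without blastocyst 12 and 0.45 with the 11 blastocysts. FXYD4, a small regulator of the sodium pump, stood at 221, 373, 44.4 and 274 in morulae and 171 to 1535 in blastocysts (median 527, blastocyst 12 at 239). Morula 54 was low and the other 3 morulae lay inside the blastocyst range, and the difference was 1.51 (SE 0.61, unadjusted p = 0.018, adjusted p = 0.835), or 1.55 (adjusted p = 0.211) without blastocyst 12. AQP3, a channel for water and glycerol, was at 213, 111, 144 and 274 against 141 to 316 in blastocysts (median 240.4, blastocyst 12 at 0), a difference of 0.11 (SE 0.70, 95% interval -1.30 to 1.51, adjusted p = 0.999), or 0.33 (adjusted p = 0.491) without blastocyst 12. ATP1B1, the beta subunit of the pump, was at 11.1, 23.05, 7.83 and 0 against 1.16 to 15.6 in blastocysts (median 8.70, blastocyst 12 at 908). Apart from blastocyst 12 it was at most 23.05 in any embryo. SLC2A1, a glucose transporter, was at 452, 438, 358 and 366 against 309 to 485 in blastocysts (median 384, blastocyst 12 at 72.1), with a difference of -0.15 (SE 0.56, 95% interval -1.28 to 0.98, adjusted p = 0.999), or -0.05 (adjusted p = 0.926) without blastocyst 12. The list of actin and cell shape genes had 14 of 33 above 0 and a median of -0.04.

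Most oocyte genes of the list were low at both stages. Of 20 oocyte genes in both tables, 6 passed the filter on low values, and the summed level over the list was 303.9, 280.4, 219 and 288 in morulae, 171 to 477 in blastocysts with a median of 286, and 3868 in blastocyst 12. CCNB1, DPPA3 and CCNB2 made most of that sum in each morula (153, 67.9 and 48.6 in morula 39), so it says little of the other members. ZP3, a protein of the zona pellucida, was at 2.93, 19.2, 5.22 and 0 against 0 to 34.6 in blastocysts (median 6.71, blastocyst 12 at 35.3). CCNB1, the mitotic cyclin, was at 153, 142, 123 and 78.4 against 53.9 to 199.9 in blastocysts (median 136, blastocyst 12 at 874). Apart from blastocyst 12 the stages overlap for both. GDF9, BMP15 and NLRP5, which mark oocytes, had 1, 3 and 17 reads over the 17 blastocysts, none of them in blastocyst 12, and they have no row in the morula table. Among genome activation transcripts 6 of 10 were above 0, with a median of 0.16. DPPA4, a chromatin factor of early embryos, differed by 0.82 ± 0.49 (SE), or by 0.91 (adjusted p = 0.308) without blastocyst 12.

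Cell cycle genes had 12 of 39 above 0 and a median of -0.18 over all 21 embryos, -0.01 without blastocyst 12 and -0.05 with the 11 blastocysts. CDKN1C, an imprinted inhibitor of cyclin-dependent kinases, was at 3.51, 11.5, 7.83 and 0 against 0 to 42.5 in blastocysts (median 14.4, blastocyst 12 at 0), a difference of 1.16 (SE 0.47, unadjusted p = 0.0187, adjusted p = 0.835), or 1.22 (adjusted p = 0.273) without blastocyst 12. CDK6, a kinase of the G1 phase, was at 15.2, 3.84, 10.4 and 52.3 against 0 to 14.5 in blastocysts (median 4.96, blastocyst 12 at 0), a difference of -1.07 (SE 0.42, unadjusted p = 0.0152, adjusted p = 0.835), or -1.02 (adjusted p = 0.295) without blastocyst 12. In both cases the groups overlap. Histone genes are read poorly by poly(A) selection, and 13 of the 20 that both tables hold were tested. H1-10, a linker histone, was at 19.3, 30.7, 88.8 and 39.2 against 0 to 37.5 in blastocysts (median 13.1, blastocyst 12 at 0), a difference of -1.35 (SE 0.47, unadjusted p = 0.00665, adjusted p = 0.835), or -1.29 (adjusted p = 0.228) without blastocyst 12. H2BC12 had 3 reads over all 4 morulae, and its difference was 1.11 (SE 0.39, adjusted p = 0.835), or 1.15 (adjusted p = 0.211) without blastocyst 12. The list median was 0.39 over all 21 embryos, 0.37 without blastocyst 12 and -0.09 with the 11 blastocysts.

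Chromatin genes had 11 of 38 above 0, with a median of -0.17 over all 21 embryos, -0.07 without blastocyst 12 and 0.14 with the 11 blastocysts. SUV39H1, a methyltransferase of heterochromatin, was at 9.37, 15.4, 20.9 and 52.3 in morulae and 1.92 to 26.95 in blastocysts (median 5.80, blastocyst 12 at 0), a difference of -1.26 (SE 0.41, unadjusted p = 0.00386, adjusted p = 0.833), or -1.20 (adjusted p = 0.211) without blastocyst 12. CBX1, a reader of the mark that SUV39H1 makes, pointed the other way, at 14.6, 30.7, 15.7 and 0 against 9.003 to 96.1 in blastocysts (median 26.02, blastocyst 12 at 26.1), a difference of 1.05 (SE 0.49, unadjusted p = 0.0373, adjusted p = 0.899), or 1.05 (adjusted p = 0.329) without blastocyst 12. DNMT1, the maintenance DNA methyltransferase, was at 32.2, 38.4, 36.5 and 26.1 against 6.86 to 55.1 in blastocysts (median 17.3, blastocyst 12 at 0), with a difference of -0.73 (SE 0.44, 95% interval -1.62 to 0.16, adjusted p = 0.981), or -0.64 (adjusted p = 0.386) without blastocyst 12. Its groups overlap, and the 4 morulae lie close together.

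Cholesterol synthesis was the list with the most members at a small p. Of 23 tested genes, 19 were above 0 over all 21 embryos, and the median was 0.54 over all 21 embryos, 0.70 without blastocyst 12 and 1.03 with the 11 blastocysts, against -0.03, 0.05 and 0.08 over all genes. At an unadjusted p under 0.05 there were 5 higher and 0 lower with all embryos, 7 higher and 0 lower without blastocyst 12 and 11 higher and 0 lower with the 11 blastocysts, where 2.54%, 8.25% and 10.3% of all genes were higher. MSMO1 (chromosome 17, 517313 to 534143), which removes methyl groups from sterols, stood at 15.2, 3.84, 20.9 and 0 in morulae and 17.2 to 122 in blastocysts (median 35.03, blastocyst 12 at 38.3). Morula 54 lay inside the blastocyst range and the other 3 below it. Its difference was 1.98 (SE 0.51, unadjusted p = 0.000297, adjusted p = 0.487), or 1.999 (adjusted p = 0.173) without blastocyst 12, and 2.56 (adjusted p = 0.0154) with the 11 blastocysts, where it rose past adjustment.

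Other enzymes of the pathway pointed the same way without passing. IDI1, which makes the second building block of sterols, was at 22.8, 15.4, 10.4 and 39.2 against 13.1 to 147 in blastocysts (median 54.1, blastocyst 12 at 0), a difference of 1.23 (SE 0.57, unadjusted p = 0.0364, adjusted p = 0.898), or 1.37 (adjusted p = 0.211) without blastocyst 12. MVD, the last enzyme before it, was at 15.8, 7.68, 20.9 and 0 against 8.12 to 65.9 in blastocysts (median 22.4, blastocyst 12 at 0), a difference of 1.11 (SE 0.49, unadjusted p = 0.0294, adjusted p = 0.86), or 1.21 (adjusted p = 0.229) without blastocyst 12. FDPS, which joins these blocks, was at 20.5, 7.68, 20.9 and 118 against 31.04 to 129 in blastocysts (median 61.7, blastocyst 12 at 1159.5), with morula 73 inside the blastocyst range. ERG28, a scaffold of late sterol enzymes, was at 12.9, 3.84, 0 and 0 against 6.54 to 71.1 in blastocysts (median 20.8, blastocyst 12 at 0), a difference of 1.74 (SE 0.48, unadjusted p = 0.000699, adjusted p = 0.487), or 1.83 (adjusted p = 0.173) without blastocyst 12. Levels of a few reads per morula stand behind these values, with 23 reads of ERG28 and 35 of MSMO1 over all 4.

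Nuclear genes of oxidative phosphorylation were above 0 for 62 of 71 members, and their median depended on which blastocysts entered, at 0.49 over all 21 embryos, 0.64 without blastocyst 12 and 0.06 with the 11 blastocysts. Blastocysts 35, 36, 37, 51 and 52 hold the high share of these transcripts given above, and without them the median is near that of all genes. ATP5ME, a subunit of the ATP synthase, was at 184, 234, 180.1 and 131 against 130.1 to 1716 in blastocysts (median 256, blastocyst 12 at 1077), and NDUFS5, a subunit of complex I, at 48.6, 49.9, 41.8 and 26.1 against 17.97 to 283 in blastocysts (median 56.4, blastocyst 12 at 241). The stages overlap for both. The difference of ATP5ME was 1.28 (SE 0.67, adjusted p = 0.953), or 1.22 (adjusted p = 0.372) without blastocyst 12. For NDUFS5 it was 1.13 (SE 0.58, adjusted p = 0.947), or 1.08 (adjusted p = 0.359) without blastocyst 12. Cytosolic ribosomal proteins had 67 of 76 above 0 and a median of 0.41 over all 21 embryos, 0.57 without blastocyst 12 and 0.21 with the 11 blastocysts. RPS18 was at 549.8, 976, 204 and 536 against 487 to 2475 in blastocysts (median 755, blastocyst 12 at 357), with morula 54 low. Of 13 mitochondrially encoded genes 6 were above 0, and the median was -0.23.

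Glycolysis had 4 of 18 above 0 and a median of -0.20 over all 21 embryos, -0.13 without blastocyst 12 and -0.05 with the 11 blastocysts. GAPDH, the glyceraldehyde phosphate dehydrogenase, was at 3419, 2769, 7338 and 4796 against 1923 to 3757 in blastocysts (median 2663, blastocyst 12 at 6.14), with a difference of -0.95 (SE 0.86, adjusted p = 0.999), or -0.66 (adjusted p = 0.217) without blastocyst 12. SLC2A5, with the smallest p of this list, pointed the other way, at 0.585, 0, 46.99 and 26.1 against 0 to 186 in blastocysts (median 69.6, blastocyst 12 at 0). Its difference was 1.77 (SE 0.87, adjusted p = 0.925), or 1.92 (adjusted p = 0.321) without blastocyst 12. With the 11 blastocysts it was 2.54 (adjusted p = 0.136), on 21 reads over the 4 morulae. The tricarboxylic acid cycle had 9 of 27 above 0 and a median of -0.13, and fatty acid and lipid genes had 9 of 25 and -0.09. HADHA, of mitochondrial fatty acid oxidation, was at 52.7, 49.9, 104 and 91.5 against 6.86 to 65.6 in blastocysts (median 27.6, blastocyst 12 at 0), a difference of -1.25 (SE 0.48, unadjusted p = 0.0118, adjusted p = 0.835), or -1.14 (adjusted p = 0.184) without blastocyst 12. Morula 54 and morula 73 were above all blastocysts.

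**Figure D4:**
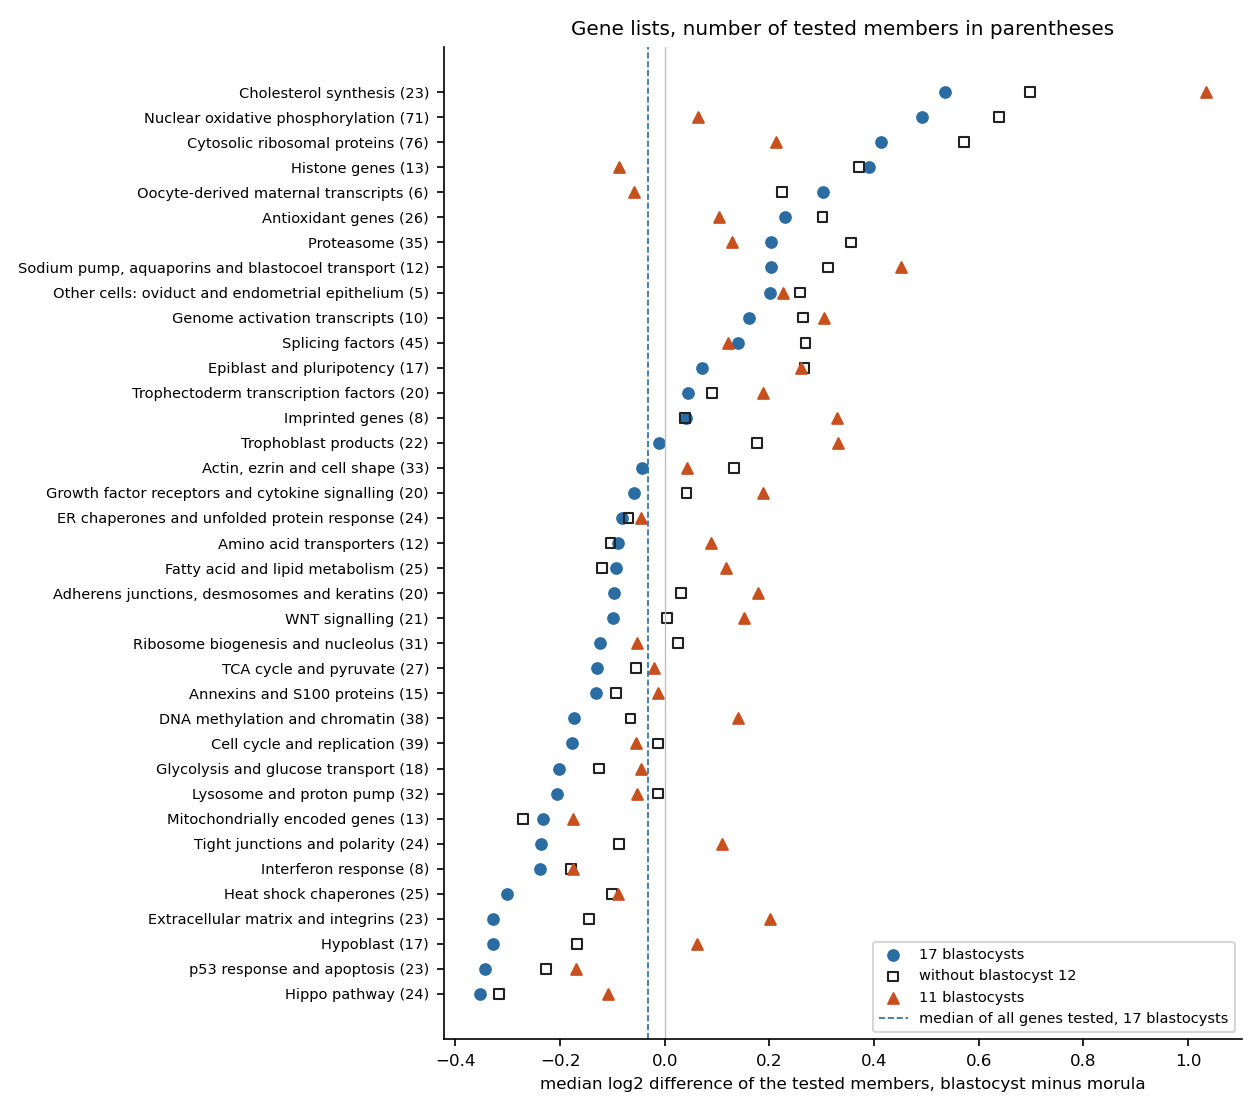
Median log2 difference, blastocyst minus morula, of the tested members of each gene list (x axis) for all 21 embryos, without blastocyst 12, and for 11 blastocysts against 4 morulae; the dashed line is the median of all genes tested with all 21 embryos. Cholesterol synthesis lies at 0.54, 0.70 and 1.03, nuclear oxidative phosphorylation moves from 0.49 and 0.64 to 0.06, and the Hippo pathway lies at -0.35, -0.32 and -0.11.

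The remaining lists had medians between -0.34 and 0.23 with all 21 embryos. Proteasome genes had 24 of 35 above 0 with a median of 0.20, splicing factors 27 of 45 with 0.14, and antioxidant genes 19 of 26 with 0.23. SNRPE, a core protein of spliceosomal particles, was at 41.6, 119, 33.9 and 13.1 against 46.6 to 548 in blastocysts (median 85.8, blastocyst 12 at 0), a difference of 1.52 (SE 0.67, unadjusted p = 0.029, adjusted p = 0.86), or 1.68 (adjusted p = 0.224) without blastocyst 12. SOD1, a superoxide dismutase, was at 36.9, 53.8, 26.1 and 39.2 against 26.95 to 238 in blastocysts (median 74.99, blastocyst 12 at 44.5), a difference of 1.02 (SE 0.49, unadjusted p = 0.0428, adjusted p = 0.913), or 1.06 (adjusted p = 0.212) without blastocyst 12. Lower medians were found for p53 response and apoptosis genes (7 of 23 above 0, -0.34), extracellular matrix and integrins (7 of 23, -0.33) and heat shock chaperones (8 of 25, -0.30). APAF1, the core of the apoptosome, was at 5.85, 11.5, 20.9 and 26.1 against 0 to 11.5 in blastocysts (median 5.80, blastocyst 12 at 0), a difference of -1.02 (SE 0.39, unadjusted p = 0.0117, adjusted p = 0.835), or -0.98 (adjusted p = 0.252) without blastocyst 12. ITGB3, an integrin beta chain, was at 16.4, 15.4, 23.5 and 13.1 in morulae and 3.27 to 11.4 in blastocysts (median 6.86, blastocyst 12 at 0), so that every blastocyst lay below every morula, with a difference of -0.91 (SE 0.36, unadjusted p = 0.0143, adjusted p = 0.835), or -0.86 (adjusted p = 0.221) without blastocyst 12.

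Among 8 further lists the medians were -0.12 for ribosome biogenesis, -0.08 for chaperones of the endoplasmic reticulum, -0.10 for WNT signalling and -0.06 for growth factor receptors. Lysosome genes lay at -0.21, amino acid transporters at -0.09, annexins and S100 proteins at -0.13 and imprinted genes at 0.04. Interferon response genes had 3 of 8 above 0 and a median of -0.24. LRP6, a co-receptor for WNT, was at 14.1, 11.5, 2.61 and 0 against 4.55 to 53.1 in blastocysts (median 20.6, blastocyst 12 at 0), a difference of 1.11 (SE 0.48, unadjusted p = 0.0262, adjusted p = 0.859), or 1.205 (adjusted p = 0.25) without blastocyst 12. BOLA, a bovine major histocompatibility gene, was at 19.3, 34.6, 33.9 and 209 against 0 to 41.4 in blastocysts (median 15.4, blastocyst 12 at 1291), a difference of -1.53 (SE 0.73, unadjusted p = 0.0452, adjusted p = 0.913), or -1.72 (adjusted p = 0.173) without blastocyst 12, with both the highest morula (73) and blastocyst 12 also high in CD74.

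The gene with the smallest p over all 21 embryos was FGFR1 (chromosome 27, 33549267 to 33599083), a receptor for fibroblast growth factors. It stood at 10.5, 49.9, 10.4 and 52.3 in morulae and 0 to 8.98 in blastocysts (median 3.86, blastocyst 12 at 0), so that every blastocyst lay below every morula. The difference was -1.74 (SE 0.38, unadjusted p = 4.4e-05, adjusted p = 0.399), or -1.71 (adjusted p = 0.152) without blastocyst 12, on 39 reads over the 4 morulae. It was -1.78 (adjusted p = 0.0698) with the 11 blastocysts, and passed in none of the 3. LRIG1, a brake on growth factor receptors, was at 8.78, 173, 18.3 and 39.2 against 0 to 15.6 in blastocysts (median 6.86, blastocyst 12 at 0), with morula 39 inside the blastocyst range and a difference of -1.88 (SE 0.45, unadjusted p = 0.000139, adjusted p = 0.487), or -1.83 (adjusted p = 0.173) without blastocyst 12. ACVR1B, a receptor for activin and NODAL, was at 1.76, 46.1, 23.5 and 91.5 against 0 to 22.1 in blastocysts (median 3.64, blastocyst 12 at 1.53), a difference of -1.77 (SE 0.49, unadjusted p = 0.000678, adjusted p = 0.487), or -1.75 (adjusted p = 0.208) without blastocyst 12. TM4SF1, a membrane protein of the tetraspanin-like L6 family, was at 15.2, 15.4, 5.22 and 39.2 against 0 to 17.97 in blastocysts (median 1.93, blastocyst 12 at 0), a difference of -1.54 (SE 0.39, unadjusted p = 0.000308, adjusted p = 0.487), or -1.50 (adjusted p = 0.173) without blastocyst 12. For each of these genes morula 41 or 73 was the highest embryo of the 21.

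TMEM150A (chromosome 11, 49406589 to 49411187), a membrane protein that binds the kinase complex making phosphatidylinositol 4-phosphate at the cell surface, was higher in blastocysts past adjustment once blastocyst 12 was left out. It stood at 60.3, 26.9, 33.9 and 0 in morulae and 35.9 to 166 in blastocysts (median 102, blastocyst 12 at 0). Morula 39 lay inside the blastocyst range and the others below it, where the 0 of morula 73 allows up to 39.2. The difference was 2.03 (SE 0.59, 95% interval 0.84 to 3.23, adjusted p = 0.745), or 2.19 (adjusted p = 0.0104) without blastocyst 12, and 2.43 (adjusted p = 0.0154) with the 11 blastocysts. EIF1AD (chromosome 29, 44090468 to 44093581), a protein with a domain of translation initiation factor eIF1A, was at 19.9, 3.84, 7.83 and 0 in morulae and 13.7 to 53.3 in blastocysts (median 36.4, blastocyst 12 at 0). Morula 39 lay inside the blastocyst range and the others below it. Its difference was 1.85 (SE 0.47, 95% interval 0.91 to 2.80, adjusted p = 0.487), or 1.97 (adjusted p = 0.0104) without blastocyst 12, where it passed, and 1.84 (adjusted p = 0.0372) with the 11 blastocysts. Both calls without blastocyst 12 were lost when morula 41 or morula 73 was left out as well. They were also lost without the sex term (adjusted p = 0.0602 and 0.0562) and with voom (0.199 and 0.228). The genes of this paragraph and of the next were singled out after their values were seen.

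With the 11 blastocysts 12 further genes passed. Besides MSMO1 they were genes of cell attachment and the cortex (PPL, DSP, DAG1, SDC1, COTL1), metabolism (MTHFD2, TMEM97), signalling and stress (MAPK3, OSGIN1, MIDN), and GEMIN7, of the complex that loads splicing particles, which was lower. PPL, a desmosomal plakin, was at 15.8, 30.7, 36.5 and 0 in morulae and 17.1 to 100 in blastocysts (median 34.7, blastocyst 12 at 121), with a difference of 1.83 (adjusted p = 0.0372) in that fit. SDC1, a cell surface proteoglycan, was at 24.6, 23.05, 39.2 and 0 against 17.6 to 141 in blastocysts (median 38.9, blastocyst 12 at 0), with 1.96 (adjusted p = 0.0372). DSP, the main plakin of desmosomes, was at 187, 207, 185 and 209 against 109.7 to 512 in blastocysts (median 332, blastocyst 12 at 1.53), with 0.91 (adjusted p = 0.0372). The 4 morulae lay close together for DSP, and inside the range of all blastocysts other than 12. The ranges given here also cover blastocysts left out of that fit. GEMIN7 was at 76.7, 96.02, 88.8 and 169.9 against 26.95 to 111 in blastocysts (median 41.4, blastocyst 12 at 0), with -1.31 (adjusted p = 0.0372). Over all embryos the difference of DSP was 0.25 (adjusted p = 0.999), or 0.47 (adjusted p = 0.51) without blastocyst 12. For PPL and SDC1 it was 1.37 and 1.26 over all embryos. Leaving out a further embryo from the fit with the 11 blastocysts gave 0 to 94 calls. With blastocyst 71 left out none passed, and with morula 73 left out 6 passed, none of them among the 14. TMEM150A and MSMO1 were called in 13 of the 15 such fits.

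**Figure D5:**
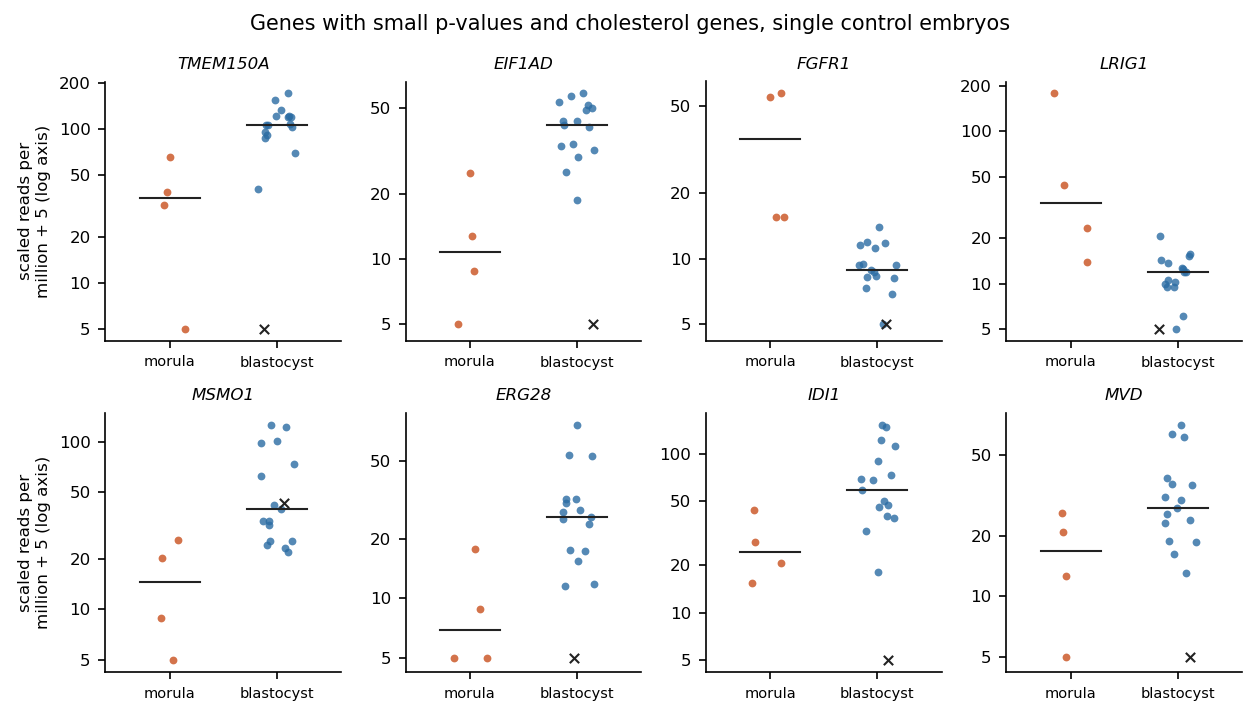
Scaled CPM plus 5, on a log axis, of 8 genes with small p; each point is 1 control embryo, orange for morulae and blue for blastocysts, a black cross marks blastocyst 12 and bars mark medians. For FGFR1 every blastocyst lies below every morula, at 0 to 8.98 against 10.4 to 52.3, and for TMEM150A and EIF1AD only morula 39 reaches the range of the 16 blastocysts other than 12.

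Markers of other cells were low in most embryos. Leukocyte markers summed to 16.98, 15.4, 52.2 and 693 in morulae and to 0 to 48.0 in blastocysts, with 3939 in blastocyst 12. Morula 73 also had VIM, a filament protein of mesenchymal cells, at 288 where the other morulae were at 4.68 or below. Of 14 leukocyte markers 10 were in both tables, and only CD74 passed the filter on low values. Fibroblast markers summed to 39.8, 38.4, 54.8 and 353, and oviduct and endometrial markers to 45.7, 53.8, 175 and 222 in morulae and to 6.89 to 281 in blastocysts, with 6100 in blastocyst 12. Almost all of that 6100 was LTF (3773) and WFDC2 (2318). MUC1, TPPP3, OVGP1, ESR1, FOXJ1, PAX8, PIGR and PGR, of the same markers, were at 0 in blastocyst 12. Erythrocyte markers summed to 14.05, 3.84, 18.3 and 169.9 in morulae and to 9.37 to 62.04 in blastocysts. Cumulus markers, of which 2 of 8 passed the filter, summed to 110.1, 142, 107 and 52.3 against 41.4 to 139. That sum includes PDGFRA, which also marks hypoblast, at 85.5, 88.3, 88.8 and 13.1 in morulae (blastocyst median 59.8). STAR, the other that passed, was at 11.1, 30.7, 10.4 and 26.1 (blastocyst median 17.2). Sperm markers had 13 reads over the 4 morulae. The part of all these markers in the results above was not tested.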

How the data were processed

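Per the labels, RNA of single embryos was extracted with a column kit and made into stranded mRNA libraries. The submitters' processing notes name FastQC, featureCounts, edgeR and the build ARS-UCD1.2. The authors deposited RPKM per gene and embryo in a blastocyst table of 18442 genes and a morula table of 14878, normalized separately. In the morula table no unit is named, and RPKM was inferred from its values. Multiplying each RPKM by the gene's deposited length, divided by 1000, and dividing by the smallest non-zero result of the embryo gave whole reads for 100% of genes, within 0.01 reads. No column of an embryo was left unmapped. The control embryos were then scaled together by median ratios over the 1615 genes detected in all 21.

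Stages were compared with the limma-trend method (limma 3.58.1 under R 4.3.3) applied to log2(scaled CPM + 5), where CPM are these reads scaled to library size, with robust moderation and sex as a term, two-sided, with Benjamini-Hochberg adjustment at 0.05. Genes needed a scaled CPM of 10 in 4 embryos. A pseudocount understates differences of low genes. No negative binomial count model was fitted, and voom on the recovered reads was an alternative. The scripts were tested on simulated data. A stage by genotype interaction was fitted over 34 embryos.

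Members and 42 gene lists were chosen with earlier results of these data known. Lists are described by counts and medians, with no test. In each direction the 15 largest differences that passed were to be named, and none passed with all embryos. Named genes are therefore a list of lineage and transport genes, up to 4 members with the smallest p per list, and genes singled out after their values were seen, and some members of the lists are not reported here by name. Alternatives changed the pseudocount, filter, scaling, test, weights, sex term, depth and libraries. After seeing the data, alternatives were added that leave out libraries by their share of bta-mir-2887-1, take that share as a term, or combine leaving out blastocyst 12 with another setting.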

Additional observations from a re-analysis of the deposited data

Results flagged for a closer look

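In 4 of 56 measurements checked, 1 morula lay far from the other 3, by a gap that exceeds Dixon's 95% critical value; chance does this in about 1 of 20 groups. LEFTY2 was at 7.61 scaled CPM in morula 39 and 0 in morulae 41, 54 and 73, where 0 allows up to 11.5, 7.83 and 39.2. Those limits lie above 7.61, so this flag cannot show a difference in level. Where 3 morulae are at 0, as here and for GSC2, any value above 0 in the other exceeds the critical value. TMEM97 was at 0 in morula 73, where 0 allows up to 39.2, against 34.6 to 42.7 in the others. GSC2 took 5.82% of the reads of morula 54 and 0 in the others. ANKRD9 took 13.9% of the reads of morula 73, against at most 0.0144% in the others.

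CYP17A1, a steroid hydroxylase whose gene has a row in the blastocyst table only, had 268 reads in 13 of the 17 control blastocysts. No fold is given, since the morulae have no row for it.

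The stage difference itself was compared between control and knockout embryos by an interaction term over 34 embryos. With limma, 8 of 9784 genes had an adjusted p under 0.05, and 1427 an unadjusted p under 0.05. The smallest adjusted p was 0.00352, for RBM19, a protein of ribosome assembly, whose log2 difference was -0.59 in controls and 3.25 in knockouts. RAPGEF5, an exchange factor for RAP proteins, had -0.82 and 2.86 (adjusted p = 0.00471). Knockout morulae held 43679 to 124603 reads. None of the lineage genes described above was among the 8.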

How the results depend on the processing

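With all 21 embryos no gene passed, and leaving out 1 embryo at a time gave 0 to 2 higher and 0 lower, the 2 being TMEM150A and EIF1AD without blastocyst 12. The call count also became 1 lower with a pseudocount of 20 (FGFR1), 5 lower with no filter (MAST3, TG, ICAM1, CSF1R, VGLL3), 1 lower with upper quartile scaling (ICAM1), 5 higher and 3 lower with quality weights (FDPS, PDLIM4, TMEM150A, KYAT1, CLDN3; TM4SF1, ND4L, ND5) and 1 higher in males alone (RNASE1). These names were taken after their values were seen. With 11 blastocysts and the 3 morulae at 2% or more of bta-mir-2887-1, 5 were higher (PPL, MSMO1, TCF7L1, SDC1, TMEM150A), and with 4 morulae 13 higher and 1 lower. Without blastocyst 12 there were 7 higher and 4 lower with weights, 2 higher with total scaling, and 2 higher and 1 lower with upper quartile scaling. A further embryo left out gave 0 to 2 higher and 0 lower, with 0 when morula 41 or 73 was left out, and 0 with voom or no sex term. Leaving out a further embryo beside the 6 blastocysts gave 0 to 82 higher, the most without morula 39, and 0 to 12 lower. The cause was not tested.

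Over 80 alternatives the unadjusted counts ran from 36 to 1057 higher and from 42 to 812 lower, and without morula 73 they were 114 and 139. The median of all genes moved from -0.03 to 0.08 with the deposited RPKM and to -0.22 with voom. Relative to 0, the list medians of cholesterol synthesis (0.32 to 1.31), the sodium pump (0.03 to 0.59) and the proteasome (0.04 to 0.48) kept their sign in every setting, as did the Hippo pathway (-0.65 to -0.03) and p53 response (-0.52 to -0.07). That of nuclear oxidative phosphorylation ran from -0.03 to 0.81, of ribosomal proteins from -0.12 to 0.73, and of hypoblast genes from -0.55 to 0.17. TMEM150A was called in 38 of 80 alternatives and EIF1AD in 27 of 79. KRT18 changed sign in 48 of 80.

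No paired analysis was possible because the embryo numbers differ between the stages. The limits are 4 morulae, of which 1 is female, the shallowest with 93980 reads, a stage that coincides with a table, and few reads behind most named genes.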
